A study of Mus musculus with 16 samples.

Results

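The genes described here are 8 subunits of the voltage-gated sodium channel family, 5 of them pore-forming alpha subunits (*Scn10a*, *Scn1a*, *Scn3a*, *Scn4a* and *Scn7a*) and 3 of them beta subunits (*Scn2b*, *Scn3b* and *Scn4b*). They were listed by symbol and found by Ensembl identifier among the 51912 genes of the table, and all 8 were present and passed the filter on low counts. They were followed in the ventricles of neonatal mice after sham surgery (SH) or myocardial infarction (MI), in wild type animals (WT) and in animals without *Lrrc10* (KO), a gene for a cardiomyocyte protein with leucine-rich repeats. The question the design puts to them is whether their transcripts differ with the loss of *Lrrc10*, with infarction, or with both.

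Each of the 4 groups had 4 libraries and is named by genotype and surgery (for example KO SH), and the KO MI libraries carry the replicate numbers 1, 2, 3 and 7. WT mice were C57BL/6J, and *Lrrc10-/-* mice lack the gene throughout the body and were made on a C57BL/6 background, so that no cell type was singled out by the deletion. Every mouse was operated on at postnatal day 1 under hypothermia. In MI the left anterior descending artery was ligated, whereas in SH the chest was opened and closed without exposing the heart, so MI and SH differ in heart handling as well as in ligation. The whole ventricles, above and below the ligature, were taken 7 days later, and rRNA-depleted total RNA was sequenced. The labels do not name litters or say whether animals were littermates.

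Sodium channels open when the membrane depolarizes and carry the inward current that starts the action potential. The alpha subunit forms the pore from 4 homologous domains and closes within milliseconds, when a short loop between domains III and IV folds into the pore. Beta subunits are small membrane proteins with an immunoglobulin-like domain that shift gating, help channels reach the surface and act in cell adhesion. The alpha subunits described here are better known from sensory neurons (*Scn10a*, the channel Nav1.8, which resists tetrodotoxin), brain (*Scn1a* and *Scn3a*, the latter mostly before and around birth), skeletal muscle (*Scn4a*) and glia (*Scn7a*, an atypical member that responds to extracellular sodium).

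On the GRCm39 assembly, *Scn3a* lies at chr2:65287462-65397971, *Scn1a* at chr2:66101122-66271572 and *Scn7a* at chr2:66503769-66615367, all on the minus strand. *Scn10a* lies at chr9:119435988-119548388 on the minus strand and *Scn4a* at chr11:106208370-106256385 on the minus strand. The 3 beta subunit genes are all on the plus strand of chromosome 9: *Scn3b* at chr9:40179378-40203052, *Scn2b* at chr9:45029080-45041368 and *Scn4b* at chr9:45049595-45065452, with 8226 bases between *Scn2b* and *Scn4b*.

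The coding sequence shows where alpha subunits differ. The loop that closes the pore is given here for *Scn10a* and the atypical *Scn7a*, 5′ to 3′ on the coding strand from GENCODE M39 transcripts on GRCm39, with the 3 codons at its tip in capitals; each stretch lies within 1 exon.
Scn10a, chr9:119445823-119445867, minus strand: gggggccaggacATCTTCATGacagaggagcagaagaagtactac
Scn7a, chr2:66511265-66511309, minus strand: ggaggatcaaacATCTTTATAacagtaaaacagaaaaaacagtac
The stretches differed at 16 of 45 bases.

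The next stretch comes from the pore loop of domain I and is shown because the codon in capitals is the site known to set how strongly tetrodotoxin blocks a sodium channel. It runs across an exon junction, so the coordinates include an intron.
Scn10a, chr9:119495148-119495473, minus strand: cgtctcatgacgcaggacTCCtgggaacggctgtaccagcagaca
Scn3a, chr2:65351371-65352177, minus strand: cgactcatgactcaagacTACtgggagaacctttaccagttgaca
Scn4a, chr11:106233344-106234759, minus strand: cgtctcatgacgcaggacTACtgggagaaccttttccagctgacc
*Scn3a* and *Scn4a* had the same codon there, and *Scn10a* had another.

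For the beta subunits, the stretch below lies in the immunoglobulin-like domain and holds the codon in capitals through which *Scn2b* and *Scn4b* proteins are known to form a disulfide bond with the alpha subunit. The *Scn3b* protein binds without such a bond.
Scn2b, chr9:45036308-45036346, plus strand: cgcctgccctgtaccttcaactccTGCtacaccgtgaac
Scn3b, chr9:40188432-40188470, plus strand: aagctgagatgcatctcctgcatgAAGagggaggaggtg
Scn4b, chr9:45058057-45058095, plus strand: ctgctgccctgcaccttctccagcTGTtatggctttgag
Over the 39 bases, *Scn2b* and *Scn4b* differed at 15, whereas *Scn3b* differed from *Scn2b* at 27 and from *Scn4b* at 22.

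Likeness between paralogs matters for the counts, since reads that fit several genes were divided among them. Of the stretches of 31 bases in each gene's transcripts, 8.87% in *Scn3a* and 6.94% in *Scn1a* also occurred in another gene. The share was 2.65% in *Scn10a*, 2.38% in *Scn2b*, 1.26% in *Scn4a*, 0.251% in *Scn3b* and 0.0539% in *Scn7a*, and no stretch of *Scn4b* occurred elsewhere. The counts of *Scn1a* and *Scn3a* are therefore the least certain in this respect.

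Before the subunits are compared, the libraries themselves need a description. *Lrrc10* had 0 counts in all 8 KO libraries, against 1075 to 1850 counts in WT SH and 1247 to 1355 in WT MI. Total counts per library lay between 33783874 and 57470159 (median 45092798). Cardiomyocyte markers were abundant everywhere, with a summed level of 24205 to 37767 CPM (counts scaled to library size) led by *Myh6*. *Myl2*, the ventricular light chain, was at 1352 to 1797 CPM, and *Myl7*, its atrial counterpart, at 0 to 10.1 CPM.

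Some libraries stood apart. All 4 WT SH libraries carried Y-linked transcripts, at a sum of 159.7 to 165 CPM, although the labels describe balanced sexes, whereas in each of the other groups 2 libraries carried them and 2 did not. Comparisons with WT SH therefore differ in sex as well, and the fits were repeated with sex as a term and within the 10 libraries with Y-linked transcripts. KO MI 2 and KO MI 7 held skeletal muscle transcripts, with the 10 markers of that tissue summing to 74 and 122 CPM, led by *Myh8*, against 1.62 to 13.4 CPM in the other libraries. KO MI 2 also had the highest sum of 4 atrial markers, 2428 CPM, followed by KO MI 3 with 856 CPM. This order rests on *Nppa*, the gene of the atrial natriuretic peptide, with 2396 CPM in the former library and 778 CPM in the latter. The other 3 markers were higher in KO MI 3 than in KO MI 2, at 9.62 and 2.09 CPM for *Myl7*, 66.3 and 30.2 CPM for *Myl4* and 2.95 and 0.492 CPM for *Sln*, and *Myl7* was highest in WT SH 2 (10.1 CPM). Comparisons with KO MI were also made without KO MI 2 and 7.

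The levels are given first. Per kilobase of exon, which allows genes to be compared, *Scn7a* was the most abundant of these 8 genes, with a mean over the 16 libraries of 2.68 CPM per kb and a range of 2.16 to 3.32. Its lowest library was above the highest library of *Scn4a*, the next gene. *Scn4a* (0.347 CPM per kb), *Scn10a* (0.327) and *Scn3b* (0.317) followed and could not be ordered: *Scn4a* was above *Scn10a* in 8 of 16 libraries and *Scn10a* above *Scn3b* in 8 of 16. With the longest transcript as the length, their order was *Scn3b*, *Scn10a*, *Scn4a*. *Scn3a* (0.139 CPM per kb) and *Scn2b* (0.122) came below them, with *Scn3a* the higher in 10 of 16 libraries. *Scn4b* (0.0288 CPM per kb) and *Scn1a* (0.012) were the lowest, and the range of *Scn4b* did not reach that of *Scn2b*.

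**Figure D1:**
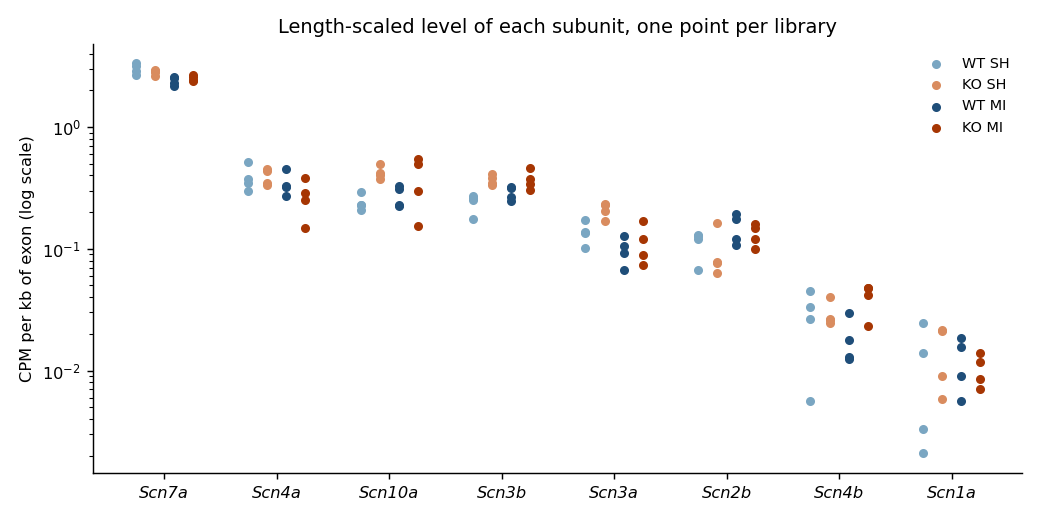
CPM per kb of exon (log scale) of each of the 8 subunits, 1 point per library and 1 colour per group, genes in order of their mean. Scn7a stands above all other members in every library, at 2.16 to 3.32 CPM per kb, and Scn1a and Scn4b lie at the bottom.

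These levels set what can be seen. *Scn7a* rested on 673 to 1287 counts in a library and *Scn10a* on 74 to 270 counts. *Scn4a* (65 to 179 counts), *Scn3a* (41 to 147) and *Scn3b* (44 to 140) were in the same range as *Scn10a*, and *Scn2b* had 11 to 41. *Scn1a* and *Scn4b* had 1 to 12 counts in every library and were at or under the floor of 3 counts in 4 and 3 libraries, so that a change in them was hardly detectable at this depth. In ventricular tissue, fewer cells that make a transcript and less of it in each cell cannot be told apart.

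Loss of *Lrrc10* without infarction (KO SH against WT SH) came with higher *Scn10a* and *Scn3b*. A gene was called when its Benjamini-Hochberg adjusted p from edgeR, over 20159 genes, was under 0.1 and its log2 fold change at least 0.5 in size. By this rule 2 of the 8 members were higher and 0 were lower, where 2.48% of all genes tested were higher and 2.53% lower, 5.01% together. The study itself names *Scn10a* and *Scn3b* from these same libraries, so their calls are no independent evidence. It places them in a cluster of genes that set KO apart from WT after sham surgery and after MI alike. With all libraries, neither was called here in KO MI against WT MI. The median log2 fold change of the 8 was 0.26, against 0.01 over all genes.

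*Scn10a* was at 2.17, 2.75, 2.17 and 1.96 CPM in WT SH 1 to 4 and at 4.71, 3.86, 3.94 and 3.57 CPM in KO SH 1 to 4. Every KO SH library was above every WT SH library. The log2 fold change was 0.83 ± 0.28 (SE, n = 4 and 4; edgeR adjusted p = 0.0742), and the exact permutation test (two-sided) gave p = 0.0286, the smallest that 4 against 4 libraries allow. Of 32 such tests on the members, 4 gave this p and 4 were without overlap between groups. These p-values were not adjusted for the number of tests, and the share of all genes without overlap was not computed. The call was near its threshold: leaving out 1 library at a time moved the adjusted p between 0.092 and 0.182, and only without WT SH 2 was *Scn10a* still called. With sex as a term the log2 fold change was 1.01 (adjusted p = 0.0477), and within libraries with Y-linked transcripts it was 0.74 (adjusted p = 0.0606), so the difference was also present among libraries of like sex.

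*Scn3b* was at 1.86, 1.82, 1.26 and 1.96 CPM in WT SH and at 2.95, 2.48, 2.38 and 2.75 CPM in KO SH. Here too the groups did not overlap, and WT SH 3 was the lowest library. The log2 fold change was 0.61 ± 0.16 (SE, n = 4 and 4; edgeR adjusted p = 0.0287; exact permutation p = 0.0286). With sex as a term it was 0.71 (adjusted p = 0.0192). It was 0.49 without WT SH 3, just under the minimum of the call, at which *Scn3a* was called instead, and 0.57 within libraries with Y-linked transcripts (adjusted p = 0.163), where it was not called.

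*Scn3a* had the values 1.81, 1.36, 2.32 and 1.84 CPM in WT SH and 2.25, 3.11, 3.07 and 2.73 CPM in KO SH, so that the lowest KO SH library was just under the highest WT SH library. Its log2 fold change of 0.61 ± 0.23 was as large as that of *Scn3b* but was not called (adjusted p = 0.124). It was called by DESeq2 (adjusted p = 0.0759), with sex as a term (adjusted p = 0.0591), in a fit to these groups alone (adjusted p = 0.0331) and with the replicate number as a block (adjusted p = 0.0562). *Scn4a* was at 3.3 ± 0.80 CPM in WT SH and 3.39 ± 0.514 CPM in KO SH, and *Scn2b* at 0.515 ± 0.135 and 0.443 ± 0.214 CPM (SD, n = 4). For these and for *Scn4b* the interval of the log2 fold change included 0. That of *Scn7a* (-0.09) was narrow, from -0.25 to 0.07. *Scn1a*, at 0.47 ± 0.61, could not be placed.

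**Figure D2:**
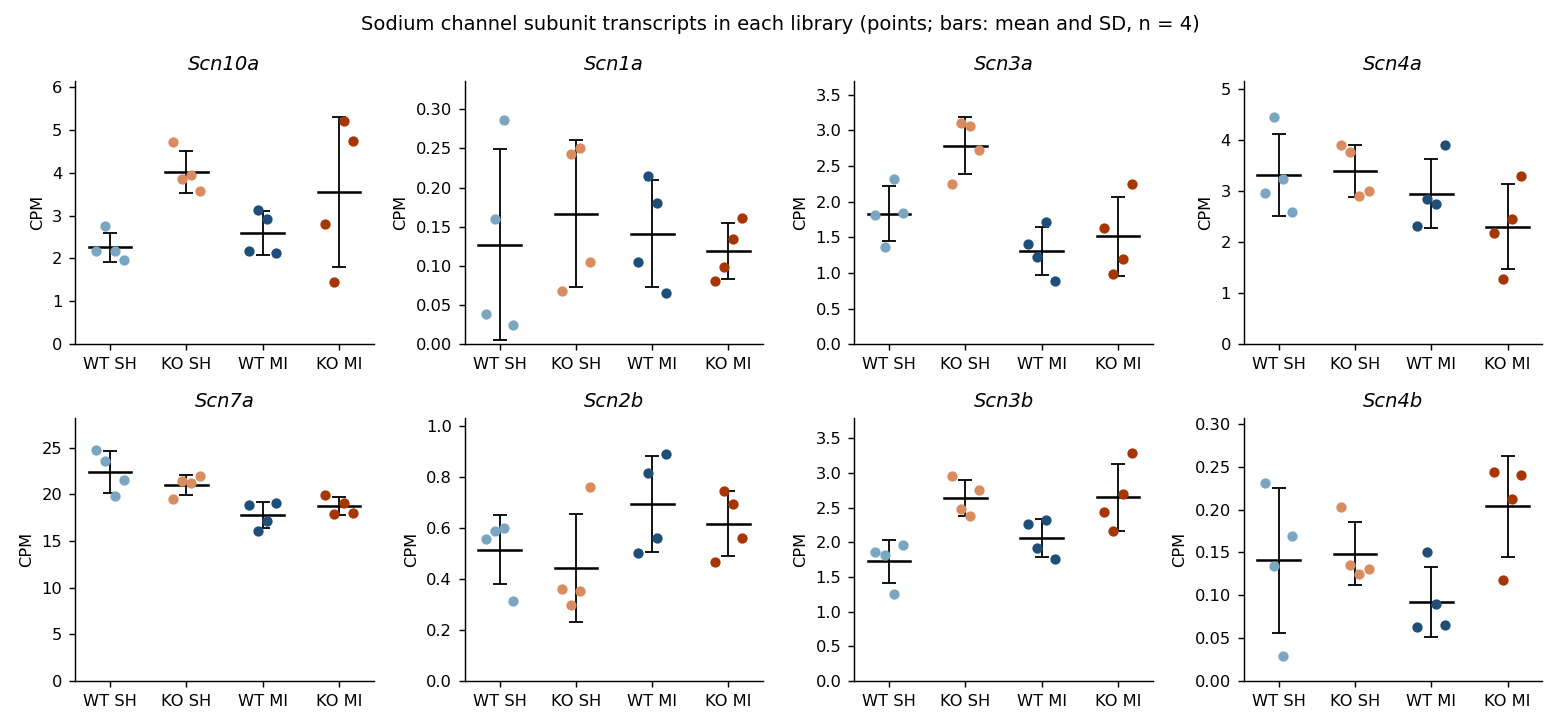
CPM of each subunit in each library (points) with the mean and SD of each group (black, n = 4); every axis starts at 0. KO SH is above WT SH without overlap for Scn10a and Scn3b, and the 4 KO MI libraries of Scn10a spread from 1.46 to 5.2 CPM.

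After infarction (KO MI against WT MI) none of the 8 members was called by edgeR or by DESeq2, where edgeR called 1.73% of all genes, and 2 of the 8 (*Scn4b* and *Scn3b*) had an unadjusted p under 0.05. *Scn10a* was at 2.17, 3.14, 2.92 and 2.13 CPM in WT MI and at 2.81, 1.46, 5.2 and 4.74 CPM in KO MI 1, 2, 3 and 7. KO MI 3 and 7 were above every WT MI library and KO MI 2 was below all of them, and the coefficient of variation within KO MI was 49% against 20.1% in WT MI. The resulting log2 fold change was 0.45 ± 0.27 (edgeR adjusted p = 0.555). Without KO MI 2 it was 0.71 and was called (adjusted p = 0.091), without KO MI 2 and 7 it was 0.62 (adjusted p = 0.205), and within libraries with Y-linked transcripts, which leave KO MI 3 and 7, it was 0.97 and was called (adjusted p = 0.0705). It was smaller without KO MI 3 (0.19, adjusted p = 0.874), without KO MI 7 (0.29, adjusted p = 0.679) and with the replicate block (0.17, adjusted p = 0.847), so its size depended on single KO MI libraries. The replicate number 7 belongs to KO MI 7 alone, so the replicate block in effect also left that library out. The block and the fit without KO MI 7 are thus not separate checks. Of these libraries KO MI 2 had the most *Nppa*, while KO MI 3, with the highest *Scn10a*, had the most *Myl7*, *Myl4* and *Sln*, and the part of tissue make-up in the spread of *Scn10a* was not tested.

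*Scn3b* had a smaller spread after infarction. It was at 2.27, 1.92, 2.32 and 1.76 CPM in WT MI and at 2.44, 2.17, 2.7 and 3.29 CPM in KO MI. This gave a log2 fold change of 0.35 ± 0.16 (95% interval 0.02 to 0.68; edgeR adjusted p = 0.361), and KO MI 2 overlapped WT MI. *Scn4b*, a beta subunit known for supplying the blocker of resurgent sodium current, had the widest difference, a log2 fold change of 1.11 with an interval of 0.14 to 2.08 (adjusted p = 0.308), on 3 to 12 counts in a library. *Scn4a* had a log2 fold change of -0.37, *Scn3a* of 0.19 and *Scn7a* of 0.07, with intervals that included 0. *Scn4a* was at -0.17 without KO MI 2 and at -0.58 without KO MI 7, and turned to 0.18 within libraries with Y-linked transcripts. *Scn3a* turned to -0.083 with the replicate block.

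Infarction in WT hearts (WT MI against WT SH) gave no call among the 8 members by edgeR or by DESeq2, where edgeR called 2.78% of all genes, and 1 of the 8 (*Scn7a*) had an unadjusted p under 0.05. *Scn7a* was at 24.7, 23.6, 19.8 and 21.5 CPM in WT SH and at 18.8, 16.1, 17.1 and 19 CPM in WT MI. Each WT MI library was below each WT SH library (exact permutation p = 0.0286). Its log2 fold change was -0.33 ± 0.08 (SE, n = 4 and 4; edgeR adjusted p = 0.0231), past the adjusted p but smaller than the minimum fold of the call; 5.31% of all genes passed on adjusted p alone. With sex as a term it was -0.32 (adjusted p = 0.0584), and within libraries with Y-linked transcripts -0.31 (adjusted p = 0.195).

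Nerve fibres run through the ventricle wall, and neuron markers were read beside *Scn7a*, a pairing chosen after the values were seen. Their sum was 4.51 ± 0.242 CPM in WT SH and 3.58 ± 0.256 CPM in WT MI (SD, n = 4), led by *Stmn2*, with 0 of the 3 tested called and a median log2 fold change of -0.23. The summed markers and *Scn7a* thus were both lower in WT MI. Endothelial markers also had a lower sum (874 ± 10.5 CPM in WT SH, 772 ± 42.8 in WT MI), as did cardiomyocyte markers (32082 ± 4398 and 26454 ± 759 CPM). Sums were higher in WT MI for macrophage (50.4 ± 3.27 and 61.2 ± 5.36 CPM) and fibroblast markers (1632 ± 121 and 1885 ± 145 CPM). None of these markers was called. The part of nerve content or of other cell types in the level of *Scn7a* was not tested. Of the other members, *Scn3a* had a log2 fold change of -0.48 (adjusted p = 0.334), *Scn2b* of 0.43, *Scn3b* of 0.25 and *Scn10a* of 0.20, all with intervals that included 0, as did that of *Scn4b* at -0.65.

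Infarction in KO hearts (KO MI against KO SH) gave 1 call among the 8 members, *Scn3a*, which was lower; 2.11% of all genes were called lower and 5.31% higher, 7.42% together. *Scn3a* was at 2.25, 3.11, 3.07 and 2.73 CPM in KO SH and at 1.63, 0.984, 1.2 and 2.25 CPM in KO MI 1, 2, 3 and 7. The groups did not overlap, although KO MI 7 and KO SH 1 were almost equal. The log2 fold change was -0.90 ± 0.23 (SE, n = 4 and 4; edgeR adjusted p = 0.0203; exact permutation p = 0.0286). It was -0.99 without KO MI 2 and 7 (adjusted p = 0.0152) and stayed called with each library left out, but it was -0.77 and not called within libraries with Y-linked transcripts (adjusted p = 0.261), which leave 2 in each group.

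*Scn4a*, the skeletal muscle channel, was at 3.9, 3.75, 2.9 and 2.99 CPM in KO SH and at 2.18, 1.28, 2.45 and 3.29 CPM in KO MI. Its log2 fold change was -0.57 ± 0.23 and was not called (adjusted p = 0.124), while it was called by DESeq2 (adjusted p = 0.0803), with the replicate block (adjusted p = 0.0494) and without KO MI 7 (log2 fold change -0.78, adjusted p = 0.0224). It was -0.37 without KO MI 2 (adjusted p = 0.35) and -0.046 within libraries with Y-linked transcripts (adjusted p = 0.971). Of the libraries with skeletal muscle transcripts, KO MI 2 had the lowest *Scn4a* of all 16 libraries, and KO MI 7, with the most such transcripts, had the highest *Scn4a* of KO MI, within the range of KO SH. The part of skeletal muscle in the level of *Scn4a* was not tested. *Scn7a* (log2 fold change -0.17), *Scn2b* (0.49) and *Scn4b* (0.43) were not called, although *Scn7a* had an interval under 0 (-0.33 to -0.01). Without KO SH 4, *Scn2b* was called (0.87, adjusted p = 0.0936). Mean *Scn3b* was 2.64 ± 0.26 CPM in KO SH, beside 2.65 ± 0.48 CPM in KO MI (SD, n = 4).

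**Figure D3:**
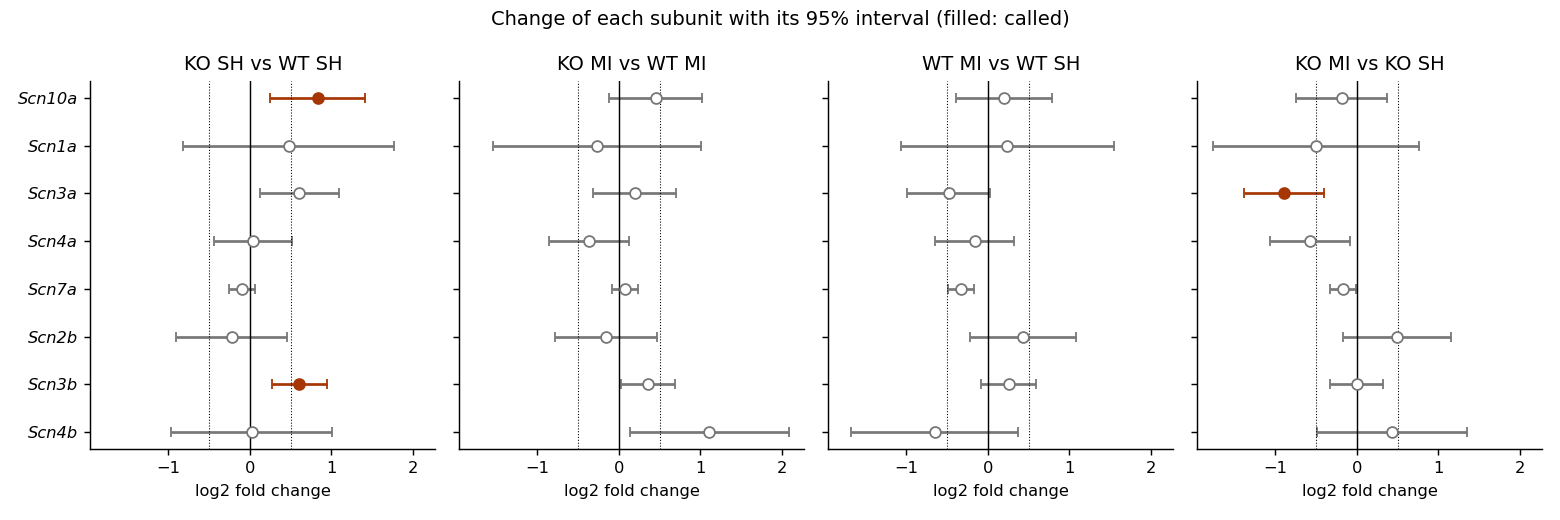
Log2 fold change of each subunit (points) with its 95% interval (bars) in the 4 comparisons, filled where called; dotted lines mark 0.5 in each direction. The called changes are Scn10a and Scn3b in KO SH against WT SH and Scn3a in KO MI against KO SH.

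Whether the effect of *Lrrc10* loss differs between infarcted and sham hearts was tested by the interaction, the log2 fold change of KO against WT in MI minus that in SH. None of the 8 members was called by edgeR or by DESeq2, and 0 had an unadjusted p under 0.05 in edgeR. Of all genes edgeR called 0.0248%, or 5 genes, but 289 were called by DESeq2, 840 by edgeR without KO MI 7 and 369 without KO MI 2 and 7, so the number over all genes depended on the tool and on KO MI 7. The interaction was -0.38 ± 0.39 for *Scn10a* (adjusted p = 0.701; -0.12 without KO MI 2 and -0.64 without KO MI 3), -0.25 ± 0.23 for *Scn3b* (adjusted p = 0.655), -0.41 ± 0.34 for *Scn3a* (adjusted p = 0.624) and 1.09 ± 0.65 for *Scn4b* (adjusted p = 0.483). So *Scn10a* and *Scn3b*, called in SH alone, were not shown to differ between SH and MI. The intervals were wide, from -1.19 to 0.43 for *Scn10a* and from -0.73 to 0.22 for *Scn3b*. Within libraries with Y-linked transcripts the interaction of *Scn10a* turned to 0.23.

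Comparisons that share a group of libraries are not independent. *Scn3a* in KO SH enters both the higher value against WT SH and the lower value in KO MI. With *Scn3a* at 1.83 ± 0.39 CPM in WT SH, 2.79 ± 0.395 in KO SH, 1.31 ± 0.343 in WT MI and 1.51 ± 0.558 in KO MI (SD, n = 4), KO SH had the highest mean of the 4 groups.

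Channel proteins depend on partners that anchor them, carry them to the membrane, cleave or phosphorylate them, and on transcription factors that set their genes, and 40 such genes were examined. In KO SH against WT SH 2 of the 40 were higher, *Hey2* and *Irx3*, and 1 was lower, *S100a10*, where 2.48% of all genes were higher and 2.53% lower. All 3 stayed called with sex as a term and within libraries with Y-linked transcripts. *S100a10* encodes p11, an annexin-binding protein known to carry the *Scn10a* channel to the cell surface. It was at 58.9, 46, 48.8 and 50.6 CPM in WT SH and at 11.6, 14, 13.1 and 12.4 CPM in KO SH, with no library between the groups. The log2 fold change was -2.0 ± 0.09 (edgeR adjusted p = 4.7e-10). After infarction *S100a10* was at 59.4, 54.7, 54.6 and 52.8 CPM in WT MI and at 16.6, 19.5, 18 and 14.8 CPM in KO MI, a log2 fold change of -1.68 ± 0.09 (adjusted p = 6.3e-09). In KO hearts *S100a10* thus was lower in both settings, while *Scn10a* was called higher in SH alone. The effect on *Scn10a* was not shown to differ between SH and MI.

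*Hey2*, a transcriptional repressor of compact ventricular muscle, was at 13.4, 12.9, 18.6 and 14.2 CPM in WT SH and at 34.4, 28.2, 24.6 and 27.4 CPM in KO SH. The groups were fully apart (log2 fold change 0.96 ± 0.20, edgeR adjusted p = 0.00795). *Irx3*, a transcription factor of the ventricular conduction system, was at 40.1, 32.2, 38.2 and 28.2 CPM in WT SH and at 58.8, 48.7, 48.4 and 51.5 CPM in KO SH (log2 fold change 0.58 ± 0.14, adjusted p = 0.0164, and just under the minimum fold, at 0.495, without WT SH 4). After infarction neither was called: *Hey2* had a log2 fold change of 0.61 (adjusted p = 0.155) with KO MI from 17.2 to 42.8 CPM, and *Irx3* had 0.34 (adjusted p = 0.28). *Hey2* was called without KO MI 2 (0.77, adjusted p = 0.0316). It was at 0.31 without KO MI 7 and at 0.26 with the replicate block, which in effect also leaves out KO MI 7. *Irx3* was at 0.20 and 0.14 in these fits. Of the 11 transcription factors on the list, 2 were called in KO SH against WT SH, where 5.01% of all genes were called. In the other comparisons 0 were called. There the share of all genes was 1.73% (KO MI against WT MI), 2.78% (WT MI against WT SH), 7.42% (KO MI against KO SH) and 0.0248% (interaction). At those shares, 0 among 11 does not set the factors apart from other genes.

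**Figure D4:**
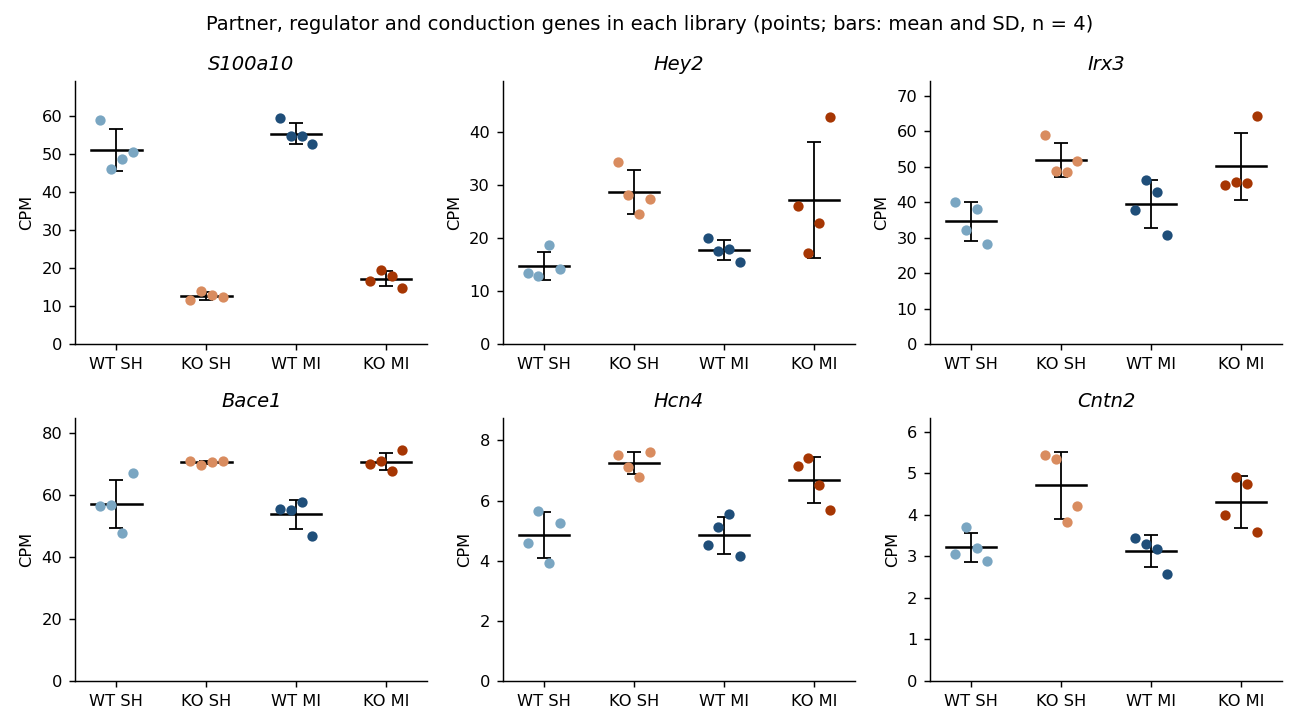
CPM in each library (points) with the mean and SD of each group (black, n = 4) for S100a10, Hey2, Irx3 and Bace1 and for the conduction genes Hcn4 and Cntn2. S100a10 is at 11.6 to 19.5 CPM in the KO libraries and 46 to 59.4 CPM in the WT libraries, and KO SH lies above WT SH in the other panels.

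*Bace1*, the secretase that cuts beta subunits, had log2 fold changes of KO against WT of 0.31 (edgeR adjusted p = 0.027) in SH and 0.40 (adjusted p = 0.0137) in MI. Both were under the minimum fold, and 12.3% and 3.07% of all genes passed on adjusted p alone. Within libraries with Y-linked transcripts they were 0.32 (adjusted p = 0.149) and 0.33 (adjusted p = 0.416). In MI against SH within KO, *Fgf12* and *Rangrf* were called higher and *Ptpn3* lower, 2 and 1 of the 40, against 5.31% and 2.11% of all genes. *Ptpn3*, a phosphatase that binds sodium channels, was at 15.7, 16.1, 15.7 and 16.6 CPM in KO SH and at 11.2, 7.48, 9.75 and 13.2 CPM in KO MI, without overlap (log2 fold change -0.63 ± 0.14, adjusted p = 0.00797, and -0.498 without KO MI 2). Against WT MI, *Ptpn3* in KO MI also was lower (-0.53, adjusted p = 0.0542), which with *S100a10* made 2 of the 40 lower and 0 higher there, against 1.16% and 0.57% of all genes. *Fgf12* was added as higher without KO MI 2 and 7 (2.75, adjusted p = 0.0893) and without KO MI 7 alone (2.52, adjusted p = 0.0665), from 2.17 (adjusted p = 0.211) with all libraries, and was at 1.39 without KO MI 3 (adjusted p = 0.551). That call on *Ptpn3* was lost without WT MI 4 (-0.39), KO MI 2 (-0.40) or KO MI 3 (-0.50, adjusted p = 0.137).

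*Fgf12*, an intracellular factor that binds the tail of the alpha subunit, had a log2 fold change of 2.33 ± 0.80 (edgeR adjusted p = 0.0689), with KO SH at 0.609, 0.567, 0.396 and 0.682 CPM and KO MI at 2.18, 2.28, 6.3 and 0.401 CPM. KO MI 7 lay inside the KO SH range, and in WT SH the gene ranged from 0.114 to 3.07 CPM. The 4 libraries highest in *Fgf12* were also highest in the atrial marker *Myl4*, in the same order: KO MI 3 (66.3 CPM of *Myl4*), WT SH 2 (60.8), KO MI 2 (30.2) and KO MI 1 (28.8), while KO MI 7 had 8.11 CPM. The other atrial markers did not give this order. *Myl7* was highest in WT SH 2 (10.1 CPM) and *Nppa* in KO MI 2 (2396 CPM). *Sln* was higher in WT MI 3 (1.1 CPM) than in KO MI 2 (0.492 CPM). The part of atrial tissue in the level of *Fgf12* was not tested. *Rangrf*, which helps sodium channels reach the membrane, had 0.61 ± 0.22 (adjusted p = 0.0787), but 0.24 and no call within libraries with Y-linked transcripts. Both lost their call in 6 of the 8 fits that left out 1 library: *Fgf12* was still called without KO MI 1 or KO MI 7, and *Rangrf* without KO SH 4 or KO MI 7, and without KO MI 3 the log2 fold change of *Fgf12* was 1.55 (adjusted p = 0.272). *Fgf13*, a relative of *Fgf12*, had -0.39 (adjusted p = 0.0127), under the minimum fold, where 17.5% of all genes passed on adjusted p alone, and -0.30 within libraries with Y-linked transcripts (adjusted p = 0.286). In WT MI against WT SH none of the 40 was called by edgeR or by DESeq2, where edgeR called 2.78% of all genes. Of the 40, 5 had an unadjusted p under 0.05 in edgeR. At so low a share, no call among 40 does not set the partners apart from other genes.

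Markers of cell types in which these channels are known were read beside them. Of 7 conduction markers, led by *Tbx3*, which is also among the 40 partners, 6 were tested and 2 were called higher in KO SH, *Hcn4* and *Cntn2*; *Isl1*, the one not tested, was at 0 to 0.22 CPM. *Hcn4*, the pacemaker channel, was at 4.59, 5.67, 3.92 and 5.25 CPM in WT SH and at 7.51, 7.13, 6.78 and 7.61 CPM in KO SH (log2 fold change 0.58 ± 0.12, edgeR adjusted p = 0.00676, and 0.493 without WT SH 3), and it stayed called with sex as a term (0.55). *Cntn2*, a contactin that marks Purkinje cells, had a log2 fold change of 0.55 ± 0.14 (adjusted p = 0.0238), but it was 0.488 with sex as a term (adjusted p = 0.0672), 0.34 within libraries with Y-linked transcripts (adjusted p = 0.311), 0.47 without KO SH 1 and 0.49 without KO SH 2, and was not called in any of these 4 fits. In MI their log2 fold changes were 0.47 (adjusted p = 0.0484) and 0.47 (adjusted p = 0.109), and without KO MI 7 both were called (0.54 each), as was *Hcn4* without WT MI 3 (0.54) and with the replicate block (0.53, adjusted p = 0.0304). Within libraries with Y-linked transcripts they were 0.28 for *Hcn4* (adjusted p = 0.727) and 0.34 for *Cntn2* (adjusted p = 0.659). The sum of the 7 markers was 32.5 ± 2.43 CPM in WT SH and 37.5 ± 2.08 CPM in KO SH (SD, n = 4), and the part of conduction tissue in the levels of *Scn10a* and *Scn3b* was not tested.

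Neuron markers were low. Of the 8, *Th* was at 0 to 0.04 CPM and *Chrna3* at 0 to 0.03 CPM, and 3 were tested. Their sum was 4.51 ± 0.242 CPM in WT SH and 4.39 ± 0.805 CPM in KO SH (SD, n = 4), and none was called between these groups. The most abundant of those tested went different ways: *Dbh*, the enzyme that makes noradrenaline, was at 1.89 ± 0.0364 CPM in WT SH and 2.39 ± 0.379 CPM in KO SH, and *Stmn2* at 2.31 ± 0.259 and 1.76 ± 0.473 CPM. The part of nerve content in the level of *Scn10a* was not tested. The cardiomyocyte markers summed to 32082 ± 4398 CPM in WT SH and 26968 ± 403 CPM in KO SH, with 0 of 7 called.

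Markers of other cell types were also read beside the lower *Scn3a* of KO MI. Of 6 macrophage markers, led by *Mrc1*, 5 were called higher in KO MI against KO SH, with sums of 64.5 ± 22.6 CPM and 42.3 ± 3.55 CPM (SD, n = 4), and in KO SH against WT SH 2 were lower, *C1qa* and *C1qb*. Of 7 skeletal muscle markers tested, 6 were called higher in KO MI against KO SH and 4 in KO MI against WT MI. Of 4 atrial markers 2 and 1 were called higher. The shares of all genes called higher were 5.31% and 0.57%. These markers were uneven within KO MI. In KO MI 1, 2, 3 and 7 the skeletal muscle sums were 2.62, 74, 7.32 and 122 CPM, and the atrial sums 341, 2428, 856 and 159 CPM. Fibroblast markers, led by *Col3a1*, summed to 1972 ± 116 CPM in KO MI and 1530.3 ± 59.1 CPM in KO SH, with 1 of 6 called higher, and endothelial markers, led by *Kdr*, to 734 ± 58.5 CPM and 812 ± 18.5 CPM, with 0 of 5 called. Neuron markers summed to 2.94 ± 0.452 CPM in KO MI and 4.39 ± 0.805 CPM in KO SH, and of the 3 tested *Dbh* was called lower (log2 fold change -1.13, edgeR adjusted p = 0.00492). *Pln*, the regulator of the calcium pump, was the 1 of 7 cardiomyocyte markers called, lower at -0.54 (adjusted p = 0.0027). Their part in the level of *Scn3a* was not tested.

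**Figure D5:**
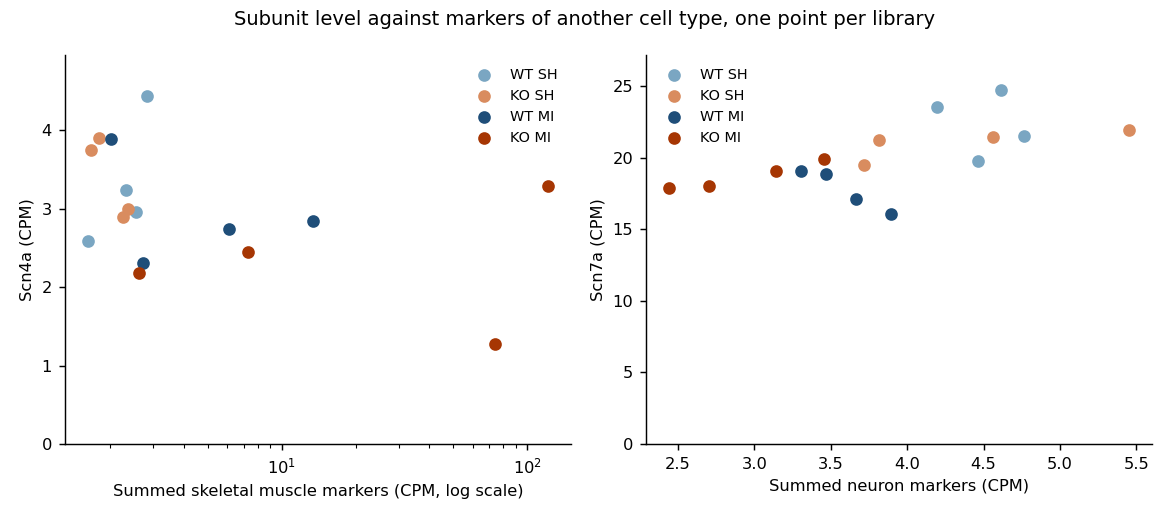
Left, Scn4a (CPM) against the sum of 10 skeletal muscle markers (CPM, log scale); right, Scn7a (CPM) against the sum of 8 neuron markers (CPM, axis not starting at 0), 1 point per library. KO MI 2 and KO MI 7, with 74 and 122 CPM of skeletal muscle markers, have Scn4a at 1.28 and 3.29 CPM, while WT MI lies low in Scn7a at 16.1 to 19 CPM.

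Genes that varied most like each member were found by the Pearson correlation of log2(CPM + 0.5) over the 16 libraries, among 12123 protein-coding genes with a mean of at least 1 CPM, for the 5 members at that level. These are descriptions over libraries that share groups and scaling. Near to *Scn10a* were *Selenop* (r = 0.86) and *Zfp607a* (r = 0.85). Nearest to *Scn3b* were *Map10* (r = 0.91), *Tmem106c* (r = 0.90) and *Srgap3* (r = 0.90). Nearest to *Scn3a* were *Rufy2* (r = 0.90), *Zfp319* (r = 0.89) and *Satb1* (r = 0.89), and to *Scn4a* *Fbp2* (r = 0.92), a fructose bisphosphatase of muscle, *Aqp4* (r = 0.88) and *Ralgps2* (r = 0.88). *Scn7a* had *Dcaf6* (r = 0.87), *Mdga1* (r = 0.86) and *Ccnl1* (r = 0.86). No member was among the 3 nearest genes of another, and between *Scn10a* and *Scn3b* r was 0.70.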

How the data were processed

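Ventricle RNA of 16 mice was sequenced as read pairs. The authors deposited RSEM expected counts per gene, not normalized and given as whole numbers, for 51912 Ensembl identifiers. The study's methods name Skewer, STAR and RSEM, while the submitters' processing notes name cutadapt (3.4), HISAT2 (2.2.1) and RSEM (1.1.17), so the aligner is uncertain; both give GRCm39. The annotation release is not given in the sources used here. Names, positions and exon lengths came from GENCODE M39.

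Groups were taken from the labels. Expected counts, rounded to whole numbers, were fitted for the 20159 genes whose counts summed to 10 or more within every group, in R (4.3.3) with edgeR (4.0.16), TMM scaling and 1 coefficient per group over all 16 libraries. Quasi-likelihood F-tests (two-sided) compared KO SH with WT SH, KO MI with WT MI, WT MI with WT SH, KO MI with KO SH, and the KO effects of MI and SH. A call needed 0.5 or more in log2 fold change, up or down, and an adjusted p (Benjamini-Hochberg) under 0.1, the thresholds of the study. Each ± after a log2 fold change is its SE. Exact permutation tests used log2(CPM + 0.5), and their p-values were not adjusted for the number of tests. CPM used TMM-scaled library sizes, with 3 counts, 0.0577 to 0.0858 CPM, as the floor, which covers counting error only. On simulated counts for KO SH against WT SH (19898 genes), 200 genes with a mean of at least 1 CPM were changed by a log2 fold change of 1. Of these 93% were called, with 7 false calls. *Scn2b*, *Scn4b* and *Scn1a* had means below 1 CPM, and smaller changes were not simulated, so the 93% does not cover them.

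The genes named are the 8 members, 40 partner genes, markers of 8 cell types and the 3 genes most correlated with each member of at least 1 CPM. Members and lists were chosen with earlier results of these data known. Other genes of the sodium channel family, 1 further list of markers, for glia, the call of 1 other marker, 1 gene nearest to a member and the coding stretches of some members are not reported here. Labels do not state separate litters, so p-values measure the spread between these animals. Alternatives were DESeq2 (1.42.0), its size factors, 2 other filters, only the groups compared, the replicate number as a block, a sex term read from Y-linked genes, no KO MI 2 and 7, other thresholds, each library left out in turn and, chosen after seeing the data, only libraries with Y-linked transcripts. Since KO MI 7 alone has the number 7, the replicate block in effect also leaves out that library.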

Additional observations from a re-analysis of the deposited data

Results flagged for a closer look

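In 72 groups of 4 libraries, 1 library was far from the other 3 by Dixon's test in 5; chance gives about 5% of groups. *Scn2b* was at 0.314 CPM in WT SH 4, below the other WT SH libraries, and at 0.761 CPM in KO SH 4, above the other KO SH libraries. *Scn4b* was at 0.203 CPM in KO SH 1, above the other KO SH libraries, on 9 counts. *Irx3* was at 64.3 CPM in KO MI 7, above the other KO MI libraries. *Bace1* was at 69.6 CPM in KO SH 2, below the other KO SH libraries, which lay within a narrow range up to 70.8 CPM.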

How the results depend on the processing

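In KO SH against WT SH, 2 of the 8 members were called; the number was 1 at an adjusted p under 0.05 (*Scn3b*), 1 within libraries with Y-linked transcripts (*Scn10a*), 1 to 2 with each library left out, and 3, with *Scn3a* added, by DESeq2, in the fit to these groups alone, with the replicate block and with the sex term. In KO MI against WT MI it was 0; it was 1 (*Scn10a*) within libraries with Y-linked transcripts and 0 to 1 with each library left out, the 1 arising without KO MI 2. In WT MI against WT SH it was 0, and 1 (*Scn7a*) with no minimum fold change. In KO MI against KO SH it was 1; it was 2 with DESeq2 and with the replicate block (both *Scn3a* and *Scn4a*), 0 within libraries with Y-linked transcripts and 1 to 2 with each library left out, *Scn4a* being added without KO MI 7 and *Scn2b* without KO SH 4. The interaction gave 0 under every alternative run. Over all genes the interaction gave 5 calls, and 289 by DESeq2, 689 with the replicate block, 369 without KO MI 2 and 7, 39 with no filter, 8 with the sex term, 3 at an adjusted p under 0.05, 0 within libraries with Y-linked transcripts and 2 to 840 with each library left out, the most without KO MI 7 and then 169 without WT SH 4. The calls in KO SH against WT SH, KO MI against WT MI, WT MI against WT SH and KO MI against KO SH were 1010, 348, 560 and 1495; they were 429, 139, 203 and 575 within libraries with Y-linked transcripts, 2486, 619, 1071 and 3536 with no minimum fold change, and 661 to 1217, 227 to 575, 283 to 632 and 885 to 2180 with each library left out. KO MI against WT MI gave 192 in the fit to these groups alone. Of 45 log2 fold changes, 42 kept their direction under every alternative run. For KO MI against WT MI, *Scn3a* turned to -0.083 with the replicate block and ranged from -0.046 (without KO MI 7) to 0.35 with each library left out, and *Scn4a* to 0.18 within libraries with Y-linked transcripts, where the interaction of *Scn10a* turned to 0.23. Among partners, *Hey2* was called in KO MI against WT MI with no filter (0.60, adjusted p = 0.0714), where *Ptpn3* lost its call in the fit to these groups alone (adjusted p = 0.291) and within libraries with Y-linked transcripts (-0.21). In KO MI against KO SH, *Fgf13* was called with the replicate block (-0.51), *Rangrf* lost its call in the fit to these groups alone (adjusted p = 0.171), and *Rangrf*, *Fgf12* and *Ptpn3* lost theirs within libraries with Y-linked transcripts (0.24, 2.68 and -0.499). The cause of these changes was not tested. The deviations of same-numbered libraries had correlations of -0.0565 to 0.175, the highest between KO MI 2 and WT MI 2. These low values do not show a pairing by number. KO MI 7 has no same-numbered library, so the replicate block in effect left it out. In KO the number also went with sex. Numbers 1 and 2 lacked Y-linked transcripts in both SH and MI, and number 3 had them in both. Depth limits *Scn1a* and *Scn4b*, with at most 12 counts in a library, most.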
